A study of Drosophila melanogaster with 6 samples.

Results

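The meiotic arrest genes of the Drosophila testis were followed on 6 GeneChip Drosophila Genome 2.0 arrays through the 10 regulators aly, can, sa, mia, nht, comr, topi, tomb, achi and vis. A probe set was taken for a gene when the array annotation names that gene alone. Each of the 10 genes had 1 such probe set among the 18769 tested, where 11982 genes are named alone by at least 1 probe set, and 1 further probe set names achi and vis together and is given apart. The arrays carry RNA from whole adult flies of 2 wild type laboratory strains, Canton-S (3 arrays) and D18 (3 arrays), each array from its own repeat of 15 flies. The flies of both strains were kept at 25 °C on cornmeal-molasses medium with antibiotic and were 3 days old by the labels and 2–3 days old by the methods, which give flies of both sexes. The strains were compared to find genes whose expression differs between lines of different geographic origin. No transgene, mutation or treatment was used, and each strain is a single laboratory line.

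In the fly testis, germ cells pass through a long growth phase as primary spermatocytes before the meiotic divisions. During that phase they transcribe the genes for meiosis and for the later shaping of the sperm. The regulators of this programme form a pair of groups. The testis TAFs (tTAFs) are testis paralogs of subunits of the general transcription factor TFIID, and the testis meiotic arrest complex (tMAC) is a testis relative of the Myb–MuvB/dREAM complex. Males without the function of these regulators have testes filled with spermatocytes that do not enter the meiotic divisions, which gave the genes their name.

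Expression was read as RMA values on a log2 scale, where a step of 1 is a 2-fold change. The lower quartile of an array lay between 2.96 and 3.09, and values under it are called dim here. Where a gene was dim on one side of a comparison, its fold is no more than a lower limit, and such differences are not ranked. Canton-S replicate 3 and D18 replicate 2 stood apart from the other 4 arrays, and no label tells the kinds of array apart. Of all 18769 probe sets, 17.4% were higher on that pair than on each of the others and 47.3% were lower. Of 8 testis markers, 7 were higher on the pair than on any of the others, as were 7 of 8 accessory gland markers and all 3 Y-linked markers measured. Genes listed as markers of the early germ line and somatic cells of the testis ran the other way. Of 7, 6 were lower on the pair (bam, zfh1, tj, eya, upd1 and zpg) and only bgcn was higher, with a median log2 difference of -1.39. Among the 6 were zpg, a gap junction gene of the germ line in both sexes, at -6.79, bam at -4.22 and tj at -2.41. Whether their signal comes from testis or ovary was not tested, so they do not show the level of early testis cells. The summed signal of the testis markers, on a log2 scale, was 13.45 in replicate 3 of Canton-S and 13.92 in replicate 2 of D18, against 7.82 to 9.04 on the others. All 13 markers of yolk and eggshell and 9 of 10 ovary markers were lower on the pair than on any of the others, with summed signals of 8.31 and 8.13 for yolk and eggshell against 15.60 to 16.59. The methods give flies of both sexes, and these levels go against that for each array. The split was taken from expression in an earlier analysis, so the values of the pair and of the others are a description without a test. In whole flies, fewer cells of a type and less RNA per cell cannot be told apart either. Each strain has 1 array of the pair, and the arrays are few, which limits the precision.

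Most of the regulators were high where the testis markers were high. On the pair of arrays 8 of the 10 were higher than on each of the other 4, all but aly and achi, while 17.4% of all 18769 probe sets were. For 7 of them, all of the 8 but mia, the mean difference was also over 2-fold, against 13.2% of all probe sets. The median difference between the pair and the others was 2.09 on the log2 scale for the 10 genes and -0.33 for all probe sets. The part of the testis markers in this difference was not tested.

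All 4 tTAFs were higher on the pair, sa and can from dim values on the other arrays, and mia by less than 2-fold. The gene sa (spermatocyte arrest, CG11308, chromosome arm 3L) encodes a relative of TAF8. It had log2 values of 6.53 in replicate 3 of Canton-S and 7.29 in replicate 2 of D18, against 2.49 and 2.51 on Canton-S replicates 1 and 2 and 2.61 and 2.91 on D18 replicates 1 and 3. It was dim on all of the other 4 arrays and at least 16.4-fold higher on the pair within Canton-S and 23.1-fold within D18. The gene can (cannonball, CG6577, 3L) encodes a WD-repeat relative of TAF5. Its log2 values were 4.36 in replicate 3 of Canton-S and 5.46 in replicate 2 of D18, and 2.27, 1.66, 1.68 and 1.94 on Canton-S replicates 1 and 2 and D18 replicates 1 and 3. The other 4 arrays were dim here too, and the pair was at least 5.27-fold higher in Canton-S and 12.6-fold in D18.

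The gene nht (no hitter, CG15259, 2L), a relative of TAF4, was close to equal on the pair at 6.09 in replicate 3 of Canton-S and 6.16 in replicate 2 of D18. On the others it read 3.52 and 3.18 in Canton-S and 3.62 and 3.21 in D18, just above the lower quartile, so that the difference was 6.71-fold in both strains. The gene mia (meiosis I arrest, CG10390, 3R), a relative of TAF6, was well above the lower quartile throughout. It had 6.58 on both arrays of the pair, against 5.68 and 6.02 on the other Canton-S arrays and 6.02 and 5.89 on the other D18 arrays. The difference was 1.65-fold in Canton-S and 1.54-fold in D18, and the lowest value of the pair was 0.55 above the highest of the others. With each array set to the same median, which shifted the difference of the median probe set by -0.47, mia differed by 0.21 and its values overlapped.

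The tMAC genes included both flat and separated patterns. The gene topi (matotopetli, CG8484, 3R), which encodes a zinc finger protein, had 5.95 in replicate 3 of Canton-S and 5.98 in replicate 2 of D18, against 3.06 and 3.25 in the other Canton-S arrays and 2.89 and 3.11 in the other D18 arrays. The groups did not overlap, with a 6.94-fold difference in Canton-S and at least 7.90-fold in D18, where replicate 1 was dim. The remaining values outside the pair lay just above the lower quartile. For comr (cookie monster, CG13493, 2R), which encodes an acidic nuclear protein, the pair read 3.93 in Canton-S and 4.03 in D18, and the others 2.35 and 2.59 in Canton-S and 2.80 and 2.47 in D18. It was dim on all 4 of the others and at least 2.75-fold and 2.64-fold higher on the pair within Canton-S and within D18.

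The gene tomb (tombola, CG14016, 2L) encodes a CXC domain protein that binds DNA. Its values on the pair were 5.63 in Canton-S and 5.47 in D18, and those on the others spread more than for any other of the 10 genes, with 4.47 and 5.01 in Canton-S and 4.37 and 3.36 in D18. The SD over these 4 arrays was 0.69, while it lay between 0.15 and 0.36 for the other 9 genes. The lowest value of the pair was 0.47 above the highest of the others, and with quantile normalization the groups overlapped.

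The gene aly (always early, CG2075, 3L), a relative of the dREAM subunit Mip130, was dim on every array. It gave 2.35 in replicate 3 of Canton-S and 2.07 in replicate 2 of D18, against 1.77 and 2.25 on the other Canton-S arrays and 1.82 and 1.84 on the other D18 arrays. The groups overlapped, and the mean difference of 0.29 turned to -0.18 with each array set to the same median. Its value rests on 1 probe set, which stayed below the lower quartile also where the testis markers were high, so it gives no level for aly.

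**Figure D1:**
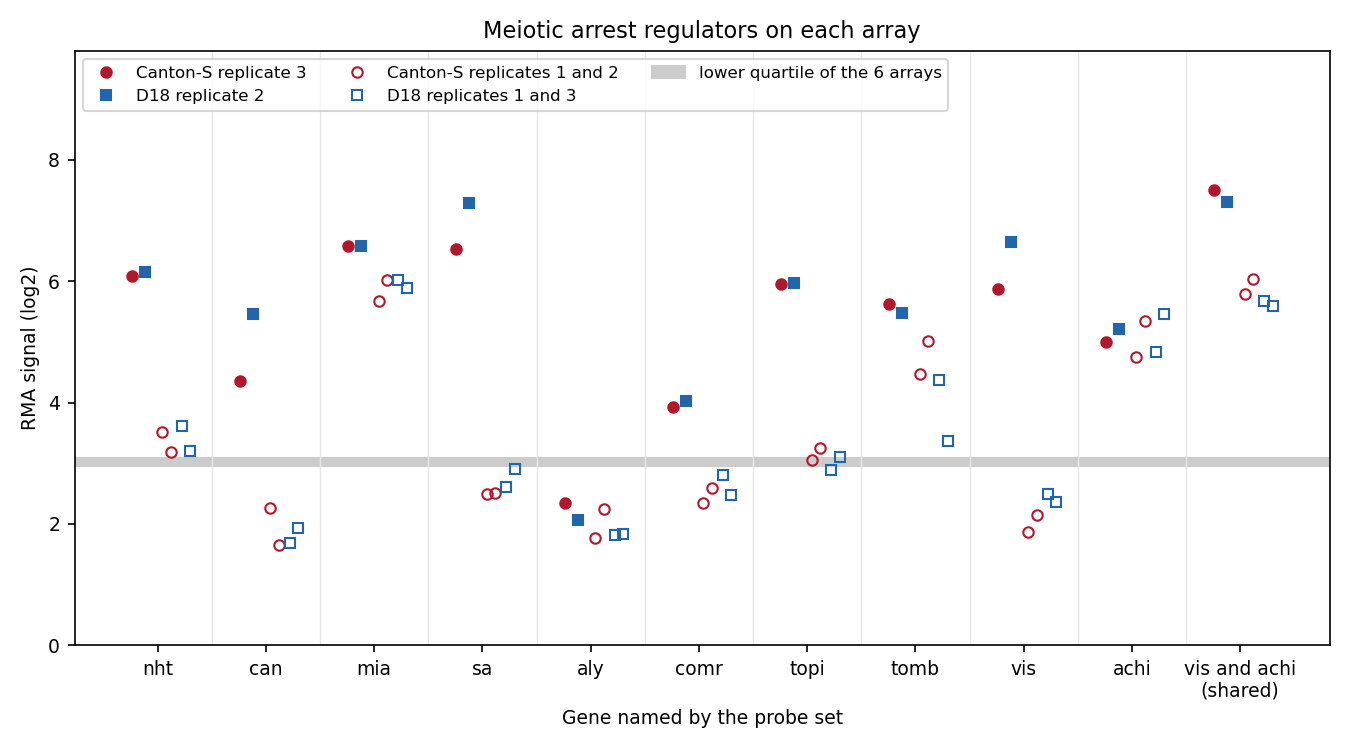
RMA signal (log2, vertical axis) of the 10 regulators and of the probe set that vis and achi share, 1 point per array. Filled points are Canton-S replicate 3 and D18 replicate 2, open points the other 4 arrays, and the grey band spans the lower quartiles of the arrays, 2.96 to 3.09. In 8 of the 10 genes both filled points lie above all open points, while in aly and achi they overlap with them.

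The genes vis (vismay, CG8821) and achi (achintya, CG8819) encode TGIF-type homeodomain proteins and lie next to each other on chromosome arm 2R, with 0 annotated genes between them in the Release 6 assembly. They are near-identical copies, so signal may cross between their probe sets. The probe set of vis alone had 5.87 in replicate 3 of Canton-S and 6.64 in replicate 2 of D18, against 1.87 and 2.14 on the other Canton-S arrays and 2.50 and 2.36 on the other D18 arrays. It was dim on the other 4 and at least 14.6-fold higher on the pair in Canton-S and 18.6-fold in D18. The probe set of achi alone read 5.0 and 5.21 on the pair, in Canton-S and D18, and 4.75 and 5.34 on the other Canton-S arrays and 4.83 and 5.46 on the other D18 arrays. These values overlapped, and the mean difference of 0.01 turned to -0.56 with quantile normalization and -0.45 with a common median. The shared probe set had 7.5 and 7.30 on the pair, in Canton-S and D18, against 5.79 and 6.04 in the other Canton-S arrays and 5.68 and 5.59 in the other D18 arrays. Its 3.00-fold difference in Canton-S and 3.17-fold in D18 lay between those of the probe sets of each gene.

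Among themselves the regulators followed the split of the arrays. Over the 6 arrays, the correlation between pairs of the 8 genes other than aly and achi, a set chosen after the values were seen, ran between 0.709 and 0.996 with a median of 0.966, a description of arrays that share this split. With the other 9 genes, tomb correlated at -0.21 to 0.78, achi at -0.21 to 0.31 and aly at 0.31 to 0.76. The probe sets with the highest Pearson correlation with the mean profile of the 10 genes were those of CG42827, CG2291, CG16739, CG34049 and CG12376, all over 0.99 on the 6 arrays. CG42827, the nearest, had 7.30 in replicate 3 of Canton-S and 7.85 in replicate 2 of D18, against 1.53 and 2.11 on the other Canton-S arrays and 1.79 and 1.63 on the other D18 arrays. Of the 13637 other probe sets that name 1 gene, 1120 (8.21%) had a correlation over 0.99, so that such likeness is common on these arrays.

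The general TFIID subunits ran the other way from the tTAFs. For the somatic counterparts Taf4, Taf5, Taf6, Taf8 and Taf12, 4 of 5 were lower on the pair than on each of the other arrays, all but Taf4, and the median difference was -1.09 on the log2 scale, against -0.33 for all probe sets. A share of 47.3% of all probe sets were likewise lower on the pair. Taf5 had 5.82 in replicate 3 of Canton-S and 5.88 in replicate 2 of D18, against 7.49 and 7.77 on the other Canton-S arrays and 8.19 and 7.83 on the other D18 arrays, while its testis paralog can was higher on the pair. Taf8, the counterpart of sa, read 5.82 and 6.0 on the pair in Canton-S and D18, and 6.58 and 7.25 in the other Canton-S arrays and 7.58 and 7.29 in the other D18 arrays. Taf6 differed by -1.0 and Taf12 by -1.09, and in Taf4 the values of the kinds of array overlapped, with a difference of -0.50. Its other probe set did not overlap, with 7.81 in replicate 3 of Canton-S and 7.70 in replicate 2 of D18, against 8.27 to 8.88 on the others.
The tTAF outside the 10 genes, Taf12L (rye, ryan express), encodes a relative of TAF12 and has a pair of probe sets that disagree. One of them gave 7.51 in replicate 3 of Canton-S and 7.61 in replicate 2 of D18, against 2.90 and 3.18 on the other Canton-S arrays and 2.58 and 2.60 on the other D18 arrays. The second went the other way, with 3.02 and 3.17 on the pair in Canton-S and D18, and 3.86 and 3.54 in the other Canton-S arrays and 3.78 and 4.0 in the other D18 arrays. Of the other TFIID subunits, 6 of 7 were lower on the pair than on each of the others, where 47.3% of all probe sets were. Their median log2 difference was -0.82, and Taf10b, at -0.16, overlapped. The widest were Tbp (the TATA-binding protein), Taf7 and Taf9 at -2.50, -2.31 and -1.61.

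**Figure D2:**
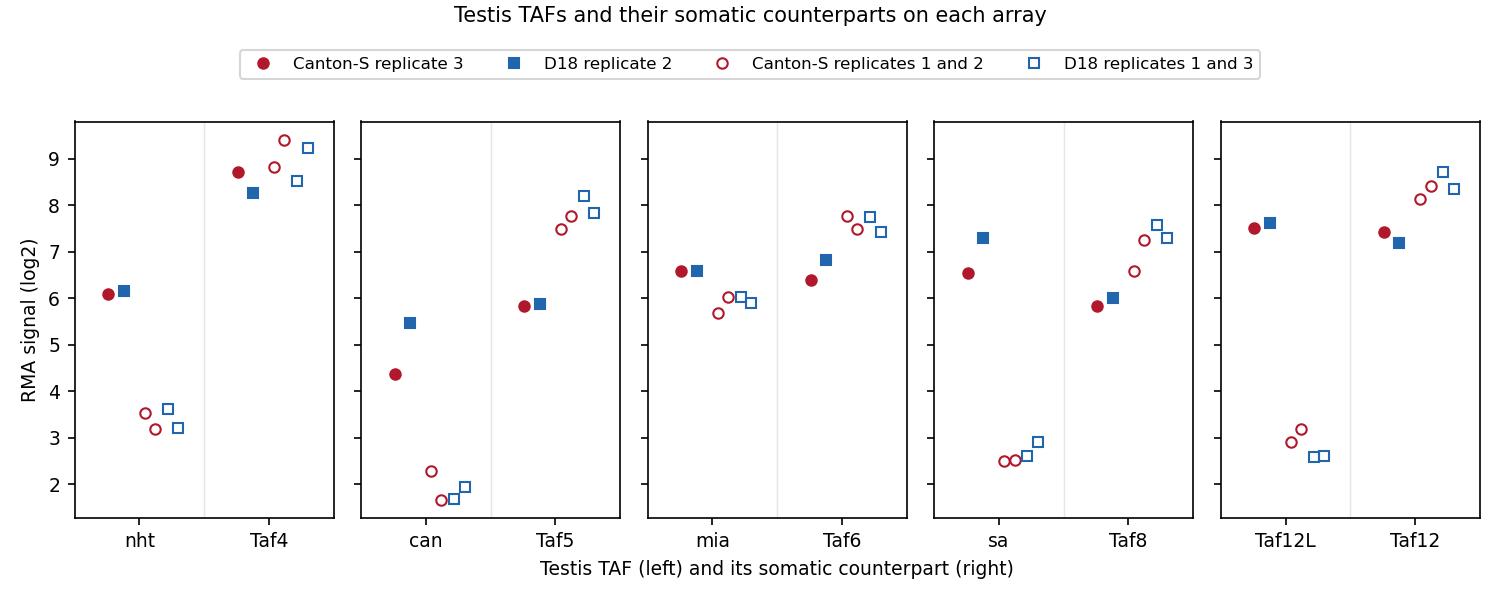
RMA signal (log2, vertical axis) of 5 testis TAFs, left in each panel, and their somatic counterparts, right, with 1 point per array. Filled points are Canton-S replicate 3 and D18 replicate 2. They lie above the open points in each testis TAF, and below them in Taf5, Taf6, Taf8 and Taf12. Each gene is drawn by its brightest probe set, and in the other probe set of Taf12L, not drawn, the pair was lower. Levels of different probe sets are not comparable.

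Among the partners of tMAC, wuc (wake-up-call), a testis paralog of lin-52, followed the regulators. It had 5.03 in replicate 3 of Canton-S and 5.76 in replicate 2 of D18, against 2.87 and 2.97 on the other Canton-S arrays and 3.31 on both other D18 arrays. Of the 3 other tMAC genes measured, wuc was higher on the pair than on each of the others, 1 was lower and mip40 overlapped. The values of mip40, a subunit that tMAC shares with dREAM, were 7.87 and 8.07 on the pair and 7.95 to 8.29 on the others. Of the dREAM/MMB genes, all 8 measured were lower on the pair than on each of the others, where 47.3% of all probe sets were, with a median difference of -2.10. For l(3)mbt this held in its brightest probe set and not in the other. They included Rbf2, a relative of the retinoblastoma protein, at -4.26, mip120 at -2.57 and Dp, the partner of E2F, at -2.15. The somatic lin-52 differed by -2.10. Of the TALE homeobox genes measured, the class to which vis and achi belong, ara and caup overlapped between the kinds of array and mirr was lower on the pair, with a log2 difference of -0.60 in its brightest probe set, while in the other, at -0.39, the values overlapped.

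Most genes that spermatocytes transcribe for meiosis and the sperm were higher on the pair, like their regulators. Of 25 measured, 23 were higher on the pair than on each of the others, against 17.4% of all probe sets. The median difference was 7.79 on the log2 scale, against -0.33 for all probe sets. On the other 4 arrays 13 of the 25 were dim throughout, so their differences are lower limits and are not set against those of the regulators, of which 5 of 10 were dim there. The list holds 6 of the 8 testis markers given above, so these are not separate evidence. Measured log2 differences included ocn at 10.06 and the sperm tail genes Mst84Db at 9.34 and Mst84Da at 9.27. The mitochondrial fusion gene fzo, which spermatids need, had 7.23 in replicate 3 of Canton-S and 7.71 in replicate 2 of D18, against 4.70 and 4.86 on the other Canton-S arrays and 4.25 and 4.23 on the other D18 arrays. The remaining genes were twe, the Cdc25 phosphatase of meiosis, and CycB (cyclin B), which both act in the female germ line as well. They were lower on the pair than on any of the other arrays, by a log2 difference of -2.64 for twe and -6.92 for CycB.
Other regulators of spermatocytes were mixed. Of 9 measured, 5 were higher on the pair (bol, bgcn, Rbp4, kmg and eIF4G2), 3 were lower (bam, Nxt1 and thoc5) and tut overlapped, against 17.4% of all probe sets higher and 47.3% lower. Among the 9, bol, bam and bgcn were also counted as markers above and are not separate evidence. The partners bam and bgcn, which end the divisions of the germ cells before meiosis, went opposite ways. While bgcn had 6.85 in replicate 3 of Canton-S and 8.49 in replicate 2 of D18, and 3.25 to 3.82 on the others, bam had 3.33 and 3.43, and 6.62 to 8.20 on the others. The RNA-binding protein gene bol (boule) depended on the probe set. The brightest read 10.52 and 10.41 on the pair in Canton-S and D18, against 5.42 to 6.14 on the others. Both of its other probe sets were lower on the pair than on each of the others. Their log2 differences were -0.76 and, in a probe set dim on every array, -0.39.

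**Figure D3:**
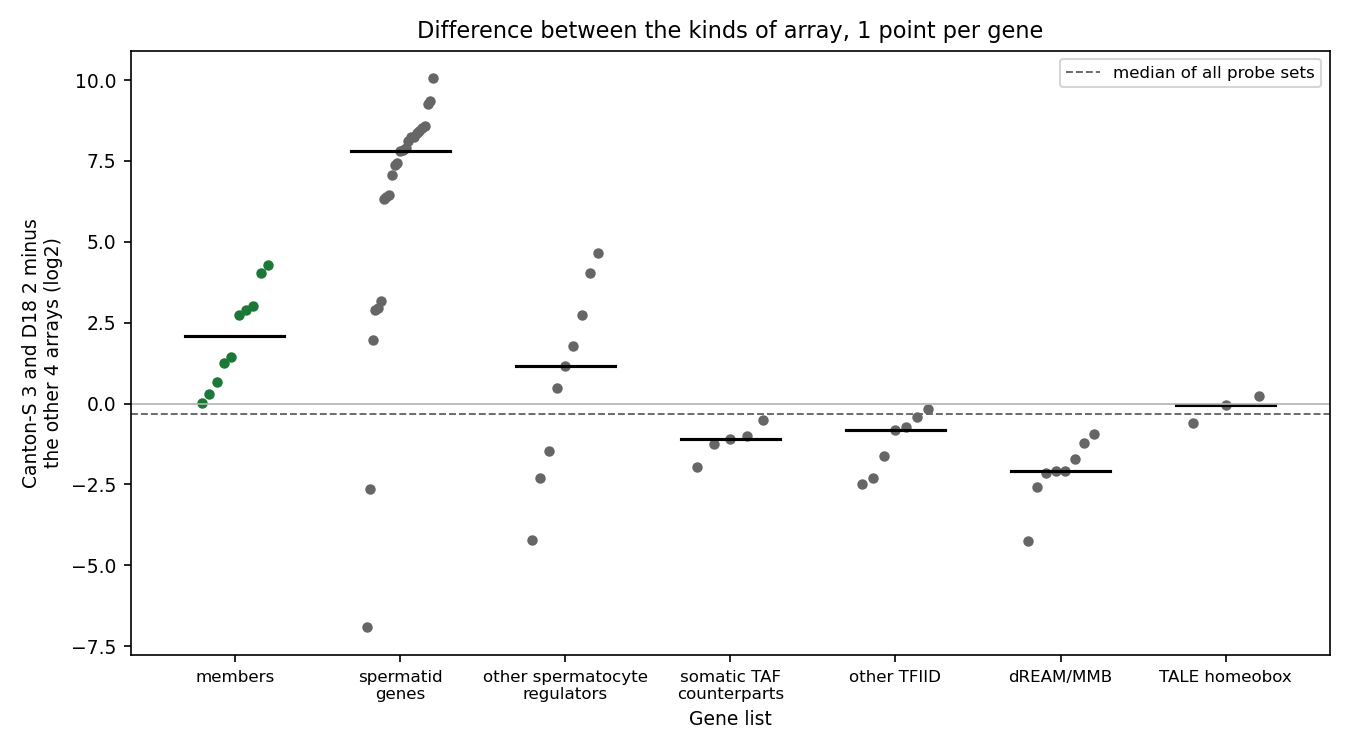
Mean log2 signal of Canton-S replicate 3 and D18 replicate 2 minus that of the other 4 arrays (vertical axis) for the 10 regulators and 6 lists of related genes, with 1 point per gene. Bars are medians of the lists, and the dashed line is the median of all probe sets, -0.33. The regulators have a median of 2.09, the spermatid genes one of 7.79, with 13 of 25 dim on the other arrays, and dREAM/MMB one of -2.10.

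Between the strains, none of the 10 regulators was called. The thresholds of the methods are an unadjusted p under 0.01 with a change of more than 2-fold, and 239 of 18769 probe sets (1.27%) passed them in limma, 203 of them (1.08%) upregulated in Canton-S versus D18 and 36 (0.192%) downregulated. At an adjusted p under 0.05 there were 7 probe sets (0.0373%) and again 0 of the 10. None of the 10 had an unadjusted p under 0.05 in limma, against 4.2% of all probe sets. Of the 10, 3 had a positive and 7 a negative difference of Canton-S minus D18, with a median of -0.10 against -0.05 for all probe sets. In none of them did the 3 Canton-S arrays lie apart from the 3 D18 arrays. All Canton-S arrays were above all D18 arrays in 5.62% of all probe sets and below them in 2.39%. The 8 genes higher on the pair could not lie apart by strain, because the pair holds an array of each strain. In these 8 the difference between the kinds of array also widens the residual spread of this fit. The low counts are therefore no result about the strains. With 3 arrays per strain the smallest p of an exact permutation test, two-sided, is 0.10.
The gene tomb had a strain difference of 0.63 on the log2 scale or 1.55-fold toward Canton-S, with a 95% interval of -0.90 to 2.17 (adjusted p = 0.9999 from limma). Its SD over 3 arrays was 0.58 in Canton-S and 1.06 in D18. The difference was 0.11 without D18 replicate 3, 0.34 without Canton-S replicate 3 and 1.17 without D18 replicate 2. In vis the Canton-S mean was 3.29 ± 2.24 and the D18 mean 3.83 ± 2.43 (SD, n = 3 arrays), a difference of -0.54 with an interval of -4.61 to 3.53. For achi and mia the intervals were -0.81 to 0.54 and -0.89 to 0.75, so that a difference over 2-fold lay outside them. For can, sa, nht, comr, topi, tomb and vis a difference of that size was not excluded by the interval of this fit. The values of aly are dim on every array, and its interval says nothing of a strain difference.

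With a block for the kind of array the residual SD of sa fell to 0.21, against 2.48 with strain alone, and the median over all probe sets to 0.23, against 0.43. The strain differences stay the same in this fit, because each strain has 1 array of the pair. No regulator passed the thresholds, while 447 probe sets (2.38%) did. The lowest p was that of vis, with a difference of -0.54 (95% interval -0.94 to -0.14, unadjusted p = 0.016, adjusted p = 0.29 from limma). Outside the pair vis was dim in both strains, which leaves 1 array per strain above the lower quartile, at 5.87 in Canton-S and 6.64 in D18. Next came sa (-0.43, interval -0.86 to 0.01, adjusted p = 0.43). The block also narrowed the intervals of nht to -0.51 to 0.38 and of topi to -0.28 to 0.46, so that a difference over 2-fold lay outside them. On the 4 arrays outside the pair, nht (3.18 to 3.62) and topi (2.89 to 3.25) lay near the lower quartile. That leaves 1 array per strain well above it for these genes. A difference over 2-fold also lay outside the intervals of sa, vis and comr (-0.54 to 0.25), which rest on dim values on 4 of 6 arrays. It did not lie outside those of can (-1.04 to 0.51) and tomb (-0.17 to 1.44). Without the pair of arrays, tomb differed 1.83-fold toward Canton-S (unadjusted p = 0.077 in limma), and none of the 10 passed, against 514 probe sets (2.74%).
On the pair alone there is 1 array per strain and no test. The log2 difference of Canton-S replicate 3 minus D18 replicate 2 was -1.10 in can, -0.77 in vis and -0.76 in sa. In the other 7 it lay between -0.21 and 0.28, the latter in aly, which was dim on both. Of the 61 genes in the related lists, 0 passed the thresholds in either direction with strain alone, where 1.27% of all probe sets did. In many of the 61 the difference between the kinds of array widens the residual spread of that fit. The residual SD was 5.81 in ocn and 4.01 in CycB, against a median of 0.43. For such genes the count of 0 is no result about the strains. With the block for the kind of array it was 0 too, against 2.38%. With strain alone 1 of the 61, the homeobox gene caup, had an unadjusted p below 0.05 from limma, where 4.2% of all probe sets did. Its Canton-S mean was 5.18 ± 0.26 and its D18 mean 4.51 ± 0.08 (SD, n = 3 arrays), with an adjusted p of 0.89 from limma.

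**Figure D4:**
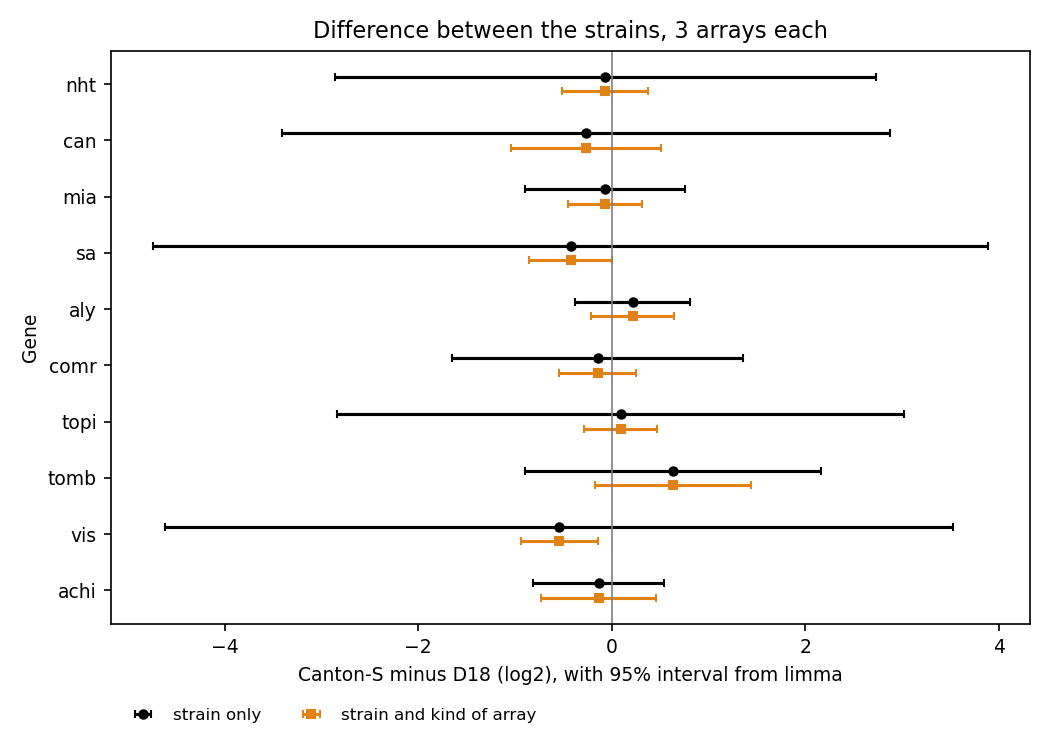
Canton-S minus D18 (log2, horizontal axis) for the 10 regulators, from 3 arrays per strain, with 95% intervals from limma. Black points are from the fit with strain alone and orange squares from that with a block for the kind of array. All intervals with strain alone include 0, and with the block that of vis, -0.94 to -0.14, does not. The adjusted p of vis in that fit was 0.29 from limma, and vis was dim on the 4 arrays outside the pair.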

How the data were processed

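RNA of 15 whole flies per array (250 ng) was used for labelling with biotin, and the cRNA was put on GeneChip Drosophila Genome 2.0 arrays. The authors ran RMA (which corrects background, normalizes arrays together and gives 1 value per probe set) in Transcriptome Analysis Console, and the deposited log2 values were used unchanged. After 183 control probe sets were left out, 18769 were tested, of which 13647 name 1 gene, 402 several and 4720 none. Names, chromosome arms and neighbours are from RefSeq for the Release 6 assembly.

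The strains were set against each other by lmFit and eBayes of limma 3.58.1 under R 4.3.3, with no factor but strain, and p were adjusted over all probe sets by Benjamini-Hochberg. The script was tested on simulated data. The methods extracted RNA of both strains together in each repeat, 1 week apart, and the number of a replicate was read as its repeat. Between arrays of the same number, deviations from the mean of each strain correlated at 0.777, -0.93 and -0.861 for numbers 1, 2 and 3. Alternatives were a replicate block, a block for the kind of array, fits without arrays, 2 other normalizations, a filter on the dimmest 40%, an intensity trend, no moderation and array weights, which were estimated gene by gene because the default REML estimate did not converge.

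The 10 genes, the lists and the split of the arrays were chosen with earlier results of these data known. Genes named by rule were the 10 regulators, the other tTAF and tMAC genes (1 tMAC gene is only counted) and somatic TAF counterparts, up to 3 genes per other list with the widest difference between the kinds of array, and the 5 probe sets most like the mean profile. Other genes were named after their values were seen. In a list, a gene counts by its brightest probe set. The listed names rye and nos matched several synonyms and were assigned by hand to Taf12L and nanos. Python 3.11.15 (pandas 2.3.3, matplotlib 3.10.9) was used for tables and plots. Sequences are not given here.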

Additional observations from a re-analysis of the deposited data

How the results depend on the processing

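No regulator and no gene of the related lists that was tested passed the thresholds under any alternative run, and no regulator reached an adjusted p under 0.05 in limma. The filter on the dimmest 40% left only mia, tomb and achi of the 10 regulators and 53 of 61 list genes, so it gives no result for the other 7 regulators. For the related lists these alternatives were chosen after seeing the data. Over all probe sets, 239 passed with strain alone, 92 with the replicate block, 447 with the block for the kind of array, 514 without the pair of arrays, 121 with a common median, 157 without moderation, 522 with array weights and 130 to 297 when 1 array was left out. The replicate block changed no call of a regulator. Small strain differences changed sign with the setting. That of can was 0.15 without the pair and 0.17 with array weights, that of nht 0.0011 with quantile normalization and 0.073 with array weights, and that of topi -0.072 with a common median. Leaving out 1 array gave ranges of 0.10 to 0.39 for aly, 0.11 to 1.17 for tomb, -1.06 to 0.95 for can, -1.77 to 1.08 for sa, -0.31 to 0.14 for mia, -0.98 to 0.85 for nht, -0.63 to 0.32 for comr, -0.84 to 1.08 for topi, -0.31 to 0.013 for achi and -1.83 to 0.86 for vis. With a common median the differences of vis (-0.71) and sa (-0.59) were wider than that of tomb (0.47). In can, sa, mia, nht, comr, topi and vis both ends came from leaving out an array of the pair. Between the kinds of array, 7 regulators did not overlap with quantile normalization (tomb joined aly and achi) and 7 with a common median (mia joined them). The difference turned for aly to -0.18 with a common median, and for achi to -0.56 with quantile normalization and -0.45 with a common median. The lists kept the sign of every gene but caup under both, apart from marker genes. The causes were not tested.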
